A study of Mus musculus with 2 samples.

Results

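The genes described here encode the ADAM, ADAMTS and ADAMTS-like proteins, a family built around a zinc-dependent metalloproteinase. They were taken by symbol: Adam, Adamts or Adamtsl followed by a number, with an ending letter allowed. In this way 57 of the 19938 mouse genes with a probe set of their own were found, 34 ADAM, 18 ADAMTS and 5 ADAMTS-like genes. The RefSeq gene table holds 1 further such gene, Adamts2, which was not analysed here.

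Healing skin of TCF reporter mice was sampled 1 week after wounding, and total RNA of cells labelled B-Gal negative and of cells labelled B-Gal positive was hybridised to Affymetrix Mouse Gene ST arrays. Both groups share the reporter genotype, the tissue (labelled skin scar) and the time, and differ in the labelled B-Gal status, read here as beta-galactosidase made from the reporter. The promoter of the transgene, the age, sex and number of the mice and the way cells were separated are not stated in the labels. Each group had 1 array, so no difference below has an error, a test or a replicate check. No probe set of the annotation used here names lacZ, and the labels could not be checked against the reporter.

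ADAM proteins are mostly membrane-anchored and cut other membrane proteins close to the cell surface, which releases cytokines, growth factors and receptor ectodomains and starts Notch signalling. ADAMTS proteins are secreted, bind the matrix through thrombospondin repeats, and cut proteoglycans, procollagens and other matrix proteins. ADAMTS-like proteins have the matrix-binding parts without the protease. In skin wounds, shedding by ADAM proteins is known for its part in inflammation and epidermal repair, and ADAMTS proteins for turnover of the provisional, versican-rich matrix.

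Of the 17 expressed ADAMTS genes, which encode secreted proteases, 11 were at least 2-fold lower in B-Gal positive cells, by up to 19.9-fold for Adamts12. At least 2-fold higher were 0. Over all expressed genes, 12.7% were at least 2-fold lower and 9.92% higher. ADAM genes went both ways. Past 2-fold, Adam8, Adam17, Adam15 and Adam30 were higher and Adam12, Adam23 and Adam19 lower, and Adam12 had the largest difference of the family (20.4-fold). Whether the classes differ was not tested. Values are deposited log2 expression values per probe set, which compare arrays within a gene and not one gene with another. A gene counted as expressed when at least 1 array lay above a floor of 5.59, the 95th percentile of 1194 olfactory and vomeronasal receptor genes. The receptor genes themselves were left out of the expressed genes. Of the 57 members, 34 passed.

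Among the 34 expressed members, 15 were lower by 2-fold or more in B-Gal positive cells and 4 were higher by that much. Over all 13784 expressed genes, 12.7% were at least 2-fold lower and 9.92% at least 2-fold higher. Counted either way, 19 of the 34 members differed this much, beside 22.6% of expressed genes. The members' median difference, B-Gal positive minus B-Gal negative, was -0.54 on the log2 scale, beside 0.06 over all expressed genes. For ADAMTS genes, 11 of 17 expressed members passed 2-fold on the lower side and 0 on the higher side, and the median was -1.17. ADAM genes had 3 of 13 lower and 4 higher, with a median of 0.14. Of the 4 expressed ADAMTS-like genes, 1 was lower and 0 higher, with a median of -0.17. At least 8-fold lower were 7 members, Adam12, Adamts12, Adamts1, Adamts5, Adamts4, Adamts15 and Adamtsl1, where 2.51% of expressed genes were that much lower. At least 16-fold lower were 2 members, beside 0.544% of expressed genes.

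Few of these members depended on the expression filter. Of the 34 expressed members 29 lay above the floor on both arrays, and 18 of the 19 members past 2-fold were among them. Without the filter, 17 of 57 members passed 2-fold on the lower side and 5 on the higher side, beside 9.63% and 7.55% of all genes other than the receptor genes. The members this added, Adam5 and Adam29 (lower) and Adam34l (higher), were under the floor on both arrays. The members just inside the 2-fold threshold were Adam15 (1.01 on the log2 scale) on the higher side and Adamts9 (-1.03) on the lower side. Just outside it were Adam9 (0.77) and Adamts19 (-0.91).

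**Figure D1:**
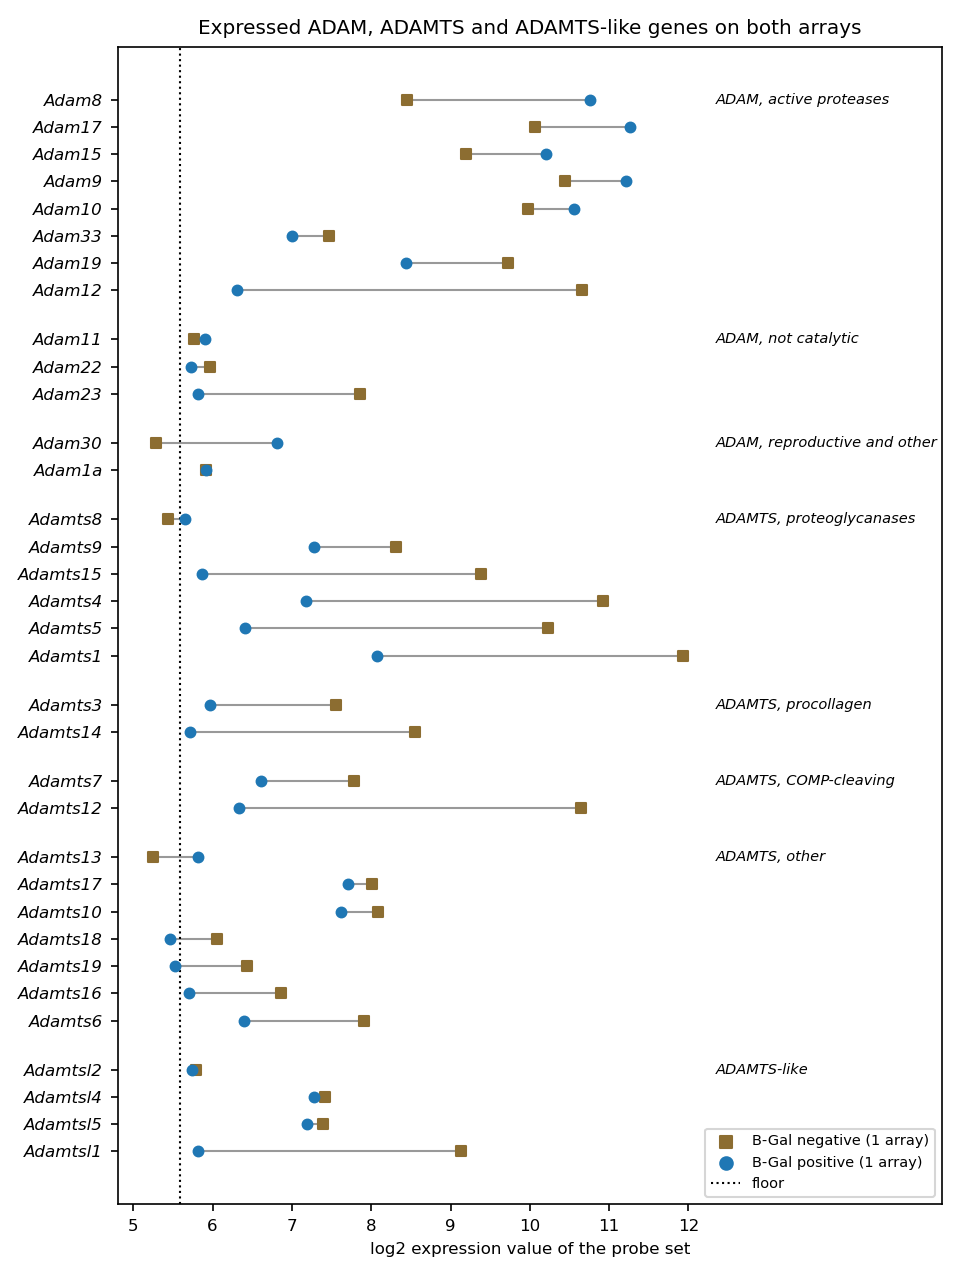
Log2 expression values of the 34 expressed family members (x axis) on the B-Gal negative array (brown squares) and the B-Gal positive array (blue circles), 1 array each, grouped by role, with the floor of 5.59 as a dotted line. In the ADAMTS groups most squares lie to the right of the circles (Adamts12 differs by -4.32), while the ADAM genes with an active protease go both ways, from Adam8 (2.31) to Adam12 (-4.35).

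Shown are the start-site windows of the 2 higher and 2 lower members with the largest differences among those that had a window. They come from RefSeq promoters on GRCm38.p6, run 5′ to 3′ from 250 bases before to 50 after the start, and capitals mark a GC box (GGGCGG) or a TATA box (TATAAA) on either strand.
Adam8 (chr7:139992513-139992812, minus strand): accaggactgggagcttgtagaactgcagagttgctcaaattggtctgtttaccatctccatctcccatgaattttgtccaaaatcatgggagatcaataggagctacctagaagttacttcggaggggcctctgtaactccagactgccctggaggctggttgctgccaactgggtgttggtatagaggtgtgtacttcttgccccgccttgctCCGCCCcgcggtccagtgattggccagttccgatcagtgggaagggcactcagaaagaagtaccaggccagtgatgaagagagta
Adam17 (chr12:21373583-21373882, minus strand): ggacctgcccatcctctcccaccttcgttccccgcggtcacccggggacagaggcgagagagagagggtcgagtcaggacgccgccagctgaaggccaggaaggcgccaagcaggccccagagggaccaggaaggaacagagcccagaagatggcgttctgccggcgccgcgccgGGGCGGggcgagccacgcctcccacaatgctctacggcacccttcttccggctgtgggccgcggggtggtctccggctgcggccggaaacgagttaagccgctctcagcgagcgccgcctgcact
Adamts1 (chr16:85803064-85803363, minus strand): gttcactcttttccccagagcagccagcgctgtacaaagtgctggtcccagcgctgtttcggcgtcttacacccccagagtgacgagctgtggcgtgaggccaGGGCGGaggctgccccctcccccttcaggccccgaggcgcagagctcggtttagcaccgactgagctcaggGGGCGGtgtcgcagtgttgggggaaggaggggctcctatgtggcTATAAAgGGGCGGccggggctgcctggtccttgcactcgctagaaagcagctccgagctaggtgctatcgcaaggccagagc
Adamts12 (chr15:11064523-11064822, plus strand): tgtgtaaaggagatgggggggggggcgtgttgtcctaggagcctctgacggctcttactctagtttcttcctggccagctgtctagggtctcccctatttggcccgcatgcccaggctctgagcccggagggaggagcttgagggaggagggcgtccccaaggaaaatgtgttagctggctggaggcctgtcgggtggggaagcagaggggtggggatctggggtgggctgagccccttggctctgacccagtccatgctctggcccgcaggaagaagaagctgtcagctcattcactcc

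The printed windows of the lower genes differ in these elements and those of the higher genes do not. The lower gene Adamts1 has 3 GC boxes and 1 TATA box, while the lower gene Adamts12 has 0 of each, and the higher genes Adam8 and Adam17 have 1 GC box each and 0 TATA boxes. Windows were held for 19 of the 34 expressed members, 21 windows in all, since Adam19 has 3. Adam12, Adam30, Adamts4, Adamts5 and Adamts15 were among the 15 without a window. A GC box was found in 14 of the 21, beside 35.66% of all 32851 windows of this length, and a TATA box in 2, beside 13.62%. The median GC content was 65.3% in member windows and 52.7% in all windows. It was 65.3% for the 3 windows of higher members and 64.7% for the 9 windows of lower members. These 9 come from 7 genes, and those of Adam19 (49.3%, 57.0% and 60.3%) are the lowest of them. The other lower windows run from 62.0% to 77.3%. The median of the lower windows thus counts Adam19 3 times.

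Since the samples came from TCF reporter mice, the TCF/LEF core CTTTGA was also searched on both strands. It was in 3 of the 21 member windows, beside 5257 of all 32851, in those of Adam19, Adamts13 and Adamtsl2. The AP-1 motif TGANTCA was in 1 of the 21, in a window of Adam19, beside 7.81% of all windows. The core GAGGAA, bound by PU.1 and other ETS factors, was in 5 of the 21, beside 28.28%. None of the 4 printed windows holds any of these 3 motifs. CTTTGA and TGANTCA can overlap by the letters TGA, and a match or its lack describes these windows only.

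Of 8 expressed ADAM genes with an active protease and use outside the testis, 3 were higher by at least 2-fold (Adam8, Adam17 and Adam15). Lower by that much were 2 (Adam12 and Adam19), and 3 did not reach 2-fold (Adam9, Adam10 and Adam33). Over all expressed genes, 9.92% were at least 2-fold higher and 12.7% lower. Adam8, a protease of activated leukocytes that cuts adhesion molecules, had a log2 value of 8.45 in B-Gal negative and 10.76 in B-Gal positive cells, a 4.95-fold higher level. It held rank 290 from the top among the 13784 expressed genes. Adam17, the enzyme that releases TNF and ligands of the EGF receptor, went from 10.07 to 11.26 and was 2.28-fold higher. Adam15, an adhesion-associated member, read 9.19 and 10.20, which is 2.01-fold higher and close to the threshold.

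Adam9 and Adam10 did not reach 2-fold. The values of Adam9, a broadly expressed sheddase, were 10.45 in B-Gal negative and 11.21 in B-Gal positive cells (1.70-fold). Those of Adam10, the protease that makes the first ligand-induced cut in Notch receptors, were 9.97 and 10.56 (a difference of 0.59). The values of Adam8, Adam9, Adam10, Adam15 and Adam17 were all well above the floor. The sizes depend on the zero point: receptor genes, which skin is not known to use widely, had a median difference of 0.28. With that subtracted from the B-Gal positive array, Adam8 (2.02) stayed past 2-fold, Adam17 (0.91) and Adam15 (0.72) did not, and Adam9 (0.48) and Adam10 (0.30) kept their sign. This scaling moved the median of expressed genes from 0.06 to -0.24. Of the genes differing at least 2-fold, 43.8% were higher as deposited and 28.5% with it, and of the members 21.1% and 11.1%.

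The related proteases Adam12, Adam19 and Adam33 had lower values. Adam12, known from fusing muscle cells and activated stroma, had 10.66 in B-Gal negative and 6.31 in B-Gal positive cells, 20.4-fold lower, at rank 19 from the bottom of all expressed genes. In B-Gal positive cells it lay not far above the floor. Adam19 read 9.72 and 8.44, 2.43-fold lower and still far above the floor on both arrays. Adam33, expressed in mesenchymal cells of several organs, read 7.46 and 6.99 (1.38-fold lower). Adam28, a lymphocyte-associated member, was under the floor on both arrays (4.24 and 4.79).

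ADAM proteins without an active protease bind partners instead of cutting them. Adam23, a ligand-binding member best known from neurons, had 7.86 in B-Gal negative and 5.82 in B-Gal positive cells, 4.10-fold lower. Its relatives Adam22 (5.97 and 5.73) and Adam11 (5.76 and 5.90) lay near the floor on both arrays and differed by under 2-fold.

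Of the 22 remaining ADAM genes, most of them known from testis and sperm, 20 were at or under the floor on both arrays. Adam30 was the member past 2-fold in this group, with 5.29 in B-Gal negative and 6.81 in B-Gal positive cells. Against the floor it was at least 2.33-fold higher. Adam1a had the same value, 5.92, on both arrays. Under the floor were Adam1b, Adam2, Adam3, Adam4, Adam5, Adam6a, Adam6b, Adam7, Adam18, Adam20, Adam21, Adam24, Adam25, Adam26a, Adam26b, Adam29, Adam32, Adam34, Adam34l and Adam39. Together with Adam28, these 21 ADAM genes had log2 values from 1.89 to 5.18, and no fold is given for them.

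ADAMTS proteases that cut versican and aggrecan, the large proteoglycans that bind hyaluronan, were lower by at least 2-fold for 5 of 6 expressed members. Higher by at least 2-fold were 0, beside 12.7% lower and 9.92% higher over all expressed genes. Adamts1, induced in inflamed and ovulating tissue, had a log2 value of 11.93 in B-Gal negative and 8.07 in B-Gal positive cells, 14.5-fold lower. Adamts5, the main aggrecanase of mouse cartilage, read 10.22 and 6.41 (14.1-fold lower). Adamts4, also an aggrecanase, read 10.93 and 7.17 (13.5-fold lower).

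Adamts15, another versican-cutting member, read 9.38 and 5.86, 11.5-fold lower and near the floor in B-Gal positive cells. These 4 genes held ranks 107 (Adamts1), 117 (Adamts5), 138 (Adamts4) and 198 (Adamts15) from the bottom of the 13784 expressed genes. Adamts9, widely expressed in development, read 8.31 and 7.28, 2.04-fold lower by the probe set used here. Adamts8 (5.44 and 5.65) lay around the floor, and Adamts20 (5.29 and 5.17) was under it on both arrays.

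Of the procollagen N-proteinases, which trim the amino-terminal propeptide before collagen fibrils form, Adamts14 and Adamts3 were both lower and Adamts2 was not analysed. Adamts14 had 8.55 in B-Gal negative and 5.72 in B-Gal positive cells, 7.10-fold lower. Adamts3, which also processes the lymphatic growth factor VEGF-C, read 7.56 and 5.96 (3.01-fold lower). Both lay close to the floor in B-Gal positive cells.

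The related proteases Adamts12 and Adamts7, which cut cartilage oligomeric matrix protein, differed in size. Adamts12 had 10.65 in B-Gal negative and 6.33 in B-Gal positive cells, 19.9-fold lower, at rank 27 from the bottom. Adamts7 read 7.79 and 6.61 (2.26-fold lower).

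Among the other ADAMTS genes, Adamts6, linked to fibrillin microfibrils, had 7.91 in B-Gal negative and 6.40 in B-Gal positive cells, 2.84-fold lower. Adamts16 read 6.86 and 5.70, 2.23-fold lower with the second value near the floor. Adamts10, also a microfibril-associated member, read 8.09 and 7.62 (1.39-fold lower), and Adamts17 read 8.01 and 7.71 (1.23-fold lower). Adamts19 (6.43 and 5.52) and Adamts18 (6.06 and 5.46) were under the floor in B-Gal positive cells, at least 1.80-fold and 1.39-fold lower. Adamts13, the protease that cuts von Willebrand factor, read 5.24 and 5.82 around the floor.

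ADAMTS-like genes had a single member with a large difference. Adamtsl1, a secreted matrix glycoprotein gene, had 9.13 in B-Gal negative and 5.81 in B-Gal positive cells, 10.0-fold lower. Adamtsl4 (7.42 and 7.28), Adamtsl5 (7.39 and 7.19) and Adamtsl2 (5.79 and 5.73) differed by at most 1.15-fold. Adamtsl3 was under the floor on both arrays (4.87 and 4.29). Relatives with other names did not differ by 2-fold either: Papln read 5.88 and 6.11, while Adamdec1 (4.30 and 4.43) and Thsd4 (5.30 and 5.30) were under the floor.

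**Figure D2:**
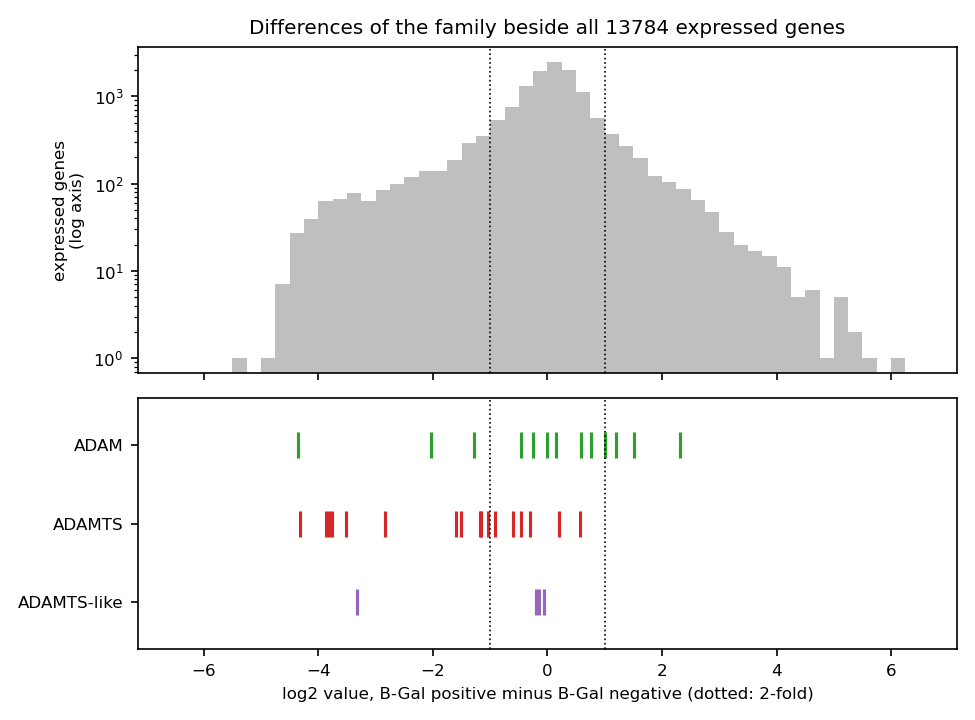
Differences on the log2 scale, B-Gal positive minus B-Gal negative (x axis), for all 13784 expressed genes as a histogram with a log count axis (top) and for each expressed family member as a tick by class (bottom), with dotted lines at 2-fold. ADAMTS ticks reach from -4.32 to 0.57 with 0 past 2-fold on the higher side, and ADAM ticks from -4.35 to 2.31.

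Genomic neighbours were compared by the order of protein-coding genes in the RefSeq table. Adamts1 and Adamts5 are adjacent on chromosome 16, with 0 coding genes between them, and differed by -3.86 and -3.82. Adamts15 and Adamts8 are adjacent on chromosome 9, and differed by -3.52 and 0.21, with Adamts8 around the floor. Adamts13 and Adamtsl2 lie on chromosome 2 with 3 coding genes between them, and both differed by under 2-fold.

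Several probe sets were present for 4 members, and the one with the highest mean was used. For Adamts9, the 6 probe sets did not agree in size: the one used gave -1.03, and the 5 others gave -2.81 to -2.09. The mean over its probe sets was -2.27. For Adamts17 the one used gave -0.30 and the 4 others -1.50 to -0.12, with 2 of the 5 past 2-fold on the lower side. All 16 probe sets of Adamts3 were at least 2-fold lower, from -3.14 to -1.16, and in B-Gal positive cells 5 of the 16 lay above the floor. Both probe sets of Adamtsl1 were lower (-3.32 and -2.66).

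**Figure D3:**
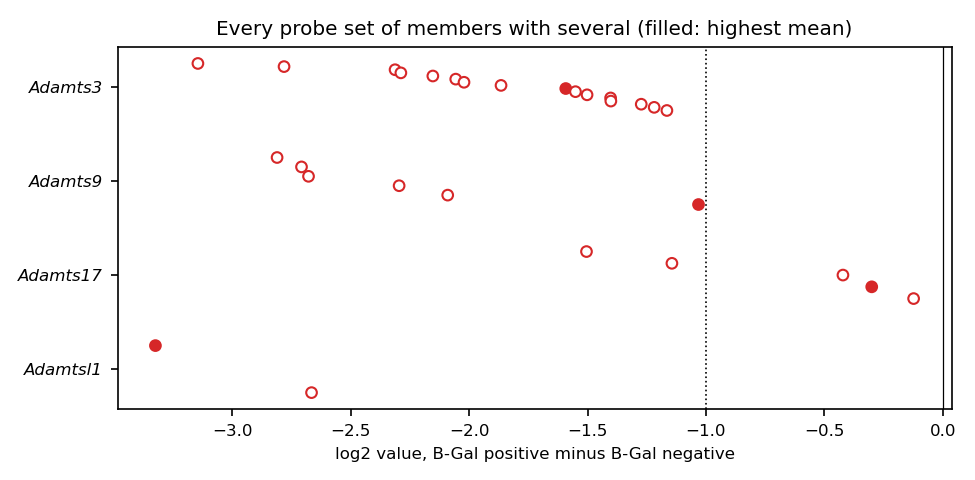
Difference on the log2 scale, B-Gal positive minus B-Gal negative (x axis), for each probe set of the 4 members with several, filled where the probe set has the highest mean and was used, with the dotted line at 2-fold lower. The filled point of Adamts9 (-1.03) lies apart from the other 5, which run from -2.81 to -2.09.

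Among inhibitors of these proteases, Timp1, Timp3 and Reck were lower by more than 2-fold, while Timp2 and Timp4 were not. Timp3, the inhibitor of ADAM17 and of several ADAMTS proteases, had 9.56 in B-Gal negative and 6.19 in B-Gal positive cells, 10.3-fold lower. Timp1 read 11.58 and 8.29 (9.73-fold lower). The membrane inhibitor gene Reck, whose product acts on ADAM10 and matrix metalloproteinases, read 8.49 and 5.63 (7.24-fold lower). Timp2 read 11.59 and 11.31 (1.21-fold lower), and Timp4 was under the floor (4.22 and 4.67). Of the 4 expressed inhibitors, 3 passed 2-fold on the lower side, beside 12.7% of all expressed genes.

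Genes for the maturation and transport of these proteases were mixed (median 0.14). Past 2-fold, 4 of 13 were lower and 3 higher, beside 12.7% and 9.92% of all expressed genes. The paired genes Rhbdf1 and Rhbdf2, which encode the iRhom proteins that carry ADAM17 to the surface, went opposite ways. Rhbdf2, the form of immune cells, had 7.53 in B-Gal negative and 9.28 in B-Gal positive cells (3.35-fold higher), and Rhbdf1 had 9.12 and 6.73 (5.23-fold lower). Furin, a convertase that removes the inhibitory prodomain of these proteases, read 9.26 and 10.39 (2.18-fold higher), while the convertase genes Pcsk5 (9.17 and 6.17) and Pcsk6 (7.38 and 5.78) were 7.99-fold and 3.04-fold lower. Among tetraspanins that guide ADAM10, Tspan14 read 8.62 and 10.21 (a difference of 1.58) and Tspan15 read 7.01 and 5.90 (2.15-fold lower). Tspan5, Tspan10, Tspan17 and Tspan33 differed by under 2-fold.

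Membrane proteins known to be shed by ADAM proteins were listed as 34 genes, of which 31 were expressed. Past 2-fold, 11 were higher and 7 lower (median 0.23), beside 9.92% and 12.7% of all expressed genes. On the higher side, Cxcl16, a membrane-bound chemokine, had 8.14 in B-Gal negative and 10.94 in B-Gal positive cells (6.98-fold). Il6ra, whose shed form carries interleukin signals to other cells, read 7.63 and 10.07 (5.44-fold), and Tnf read 10.33 and 11.84 (2.86-fold). The macrophage receptors Trem2, Csf1r and Mertk, also in this list, were 13.5-fold, 11.5-fold and 8.45-fold higher.

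On the lower side of the shed proteins, Ereg, an EGF receptor ligand, had 9.20 in B-Gal negative and 6.69 in B-Gal positive cells (5.71-fold). The N-cadherin gene Cdh2 was under the floor in the latter (5.40) and at least 5.34-fold lower. Prnp (10.00 and 7.83) and Vcam1 (10.90 and 9.35) were 4.50-fold and 2.93-fold lower. The ligands Hbegf (1.70-fold higher) and Tgfa (1.17-fold higher) did not reach 2-fold.

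Matrix proteins cut by ADAMTS proteases were listed as 18 genes, and 14 were expressed. Past 2-fold, 8 of them were lower and 0 higher, beside 12.7% and 9.92% of all expressed genes, and the median was -1.80. Versican (Vcan), the main substrate in provisional matrix, had 11.32 in B-Gal negative and 8.89 in B-Gal positive cells (5.39-fold lower). The small proteoglycan genes Bgn (12.59 and 9.14) and Dcn (13.40 and 10.64) were 10.9-fold and 6.75-fold lower, and the fibrillin gene Fbn2 read 9.58 and 6.09 (11.2-fold lower). Fibronectin (Fn1) read 12.77 and 12.69 and von Willebrand factor (Vwf) 6.97 and 6.92. Aggrecan (Acan) and Comp were under the floor on both arrays.

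**Figure D4:**
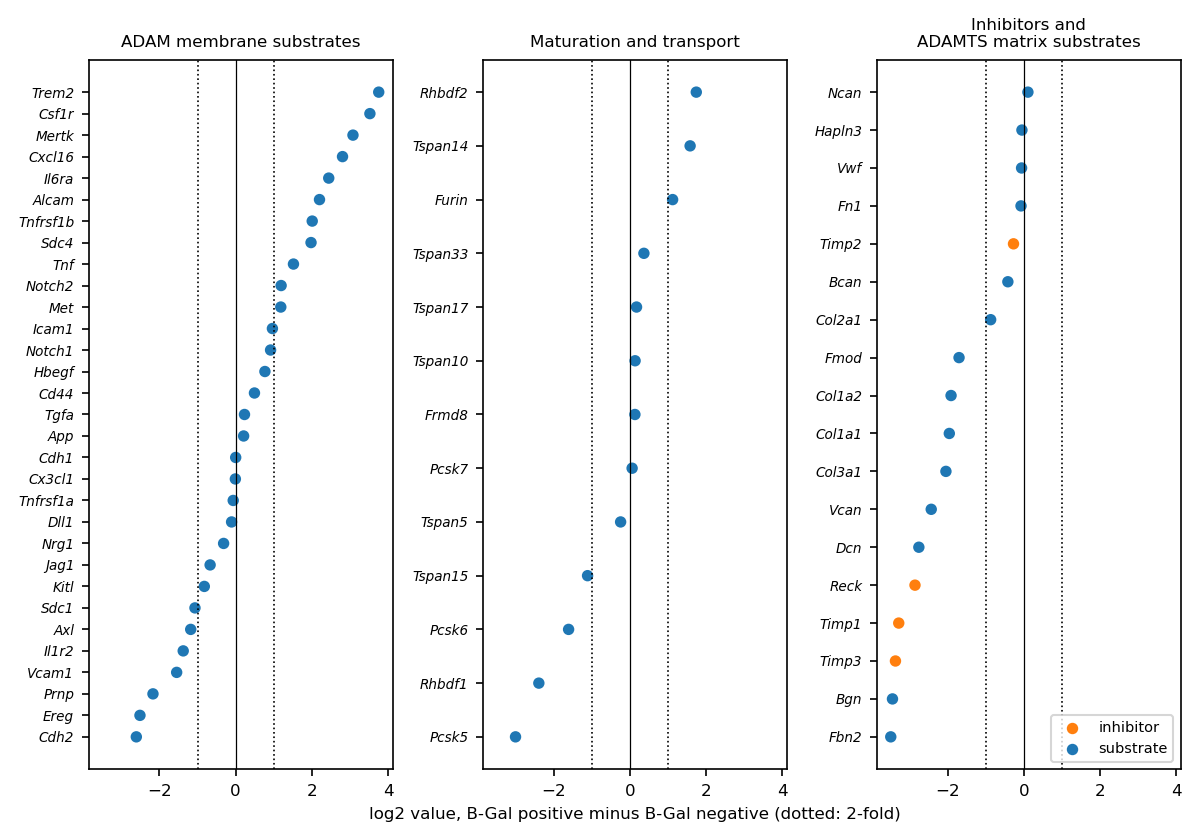
Difference on the log2 scale, B-Gal positive minus B-Gal negative (x axis), for expressed genes of shed membrane proteins (left), maturation and transport (middle), and inhibitors (orange) with ADAMTS matrix substrates (blue, right), 1 point a gene, dotted lines at 2-fold. Trem2 (3.75) is at the top of the left panel, Rhbdf2 (1.75) and Rhbdf1 (-2.39) lie on opposite sides of the middle panel, and on the right 0 genes pass 2-fold on the higher side.

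Markers of several cell types also differed between the arrays, where 9.92% of all expressed genes were at least 2-fold higher and 12.7% lower. The lists share genes: Dcn, Col1a1, Col1a2 and Col3a1 are both fibroblast markers and ADAMTS matrix substrates, Csf1r is both a macrophage marker and a shed protein, and Cdh1 both a keratinocyte marker and a shed protein, so these lists agree in part by construction. All 11 macrophage markers with a probe set passed 2-fold on the higher side, with a summed linear signal of 2931 in B-Gal negative and 43977 in B-Gal positive cells, and Cd163 and Ms4a7 were under the floor in the former. All 9 fibroblast markers passed 2-fold on the lower side, with sums of 73178 and 14328, and none was under the floor in B-Gal positive cells. The fibroblast differences ran from -4.32 (Pdgfra) to -1.91 (Col1a2), a range that holds those of Adamts12, Adamts1, Adamts5, Adamts4, Adamts15, Adamtsl1, Adamts14 and Adam23. Adam12, at -4.35, lay just beyond it. Such a range was not particular to fibroblast markers. The mural cell markers ran from -4.29 (Pdgfrb) to -0.70 (Cspg4), which holds the same members except Adamts12. Mast cell markers ran from -5.39 (Cpa3) to -1.78 (Kit), which holds all of them and Adam12. The largest mast cell differences rest on values under the floor.

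Past 2-fold on the lower side were mural cell markers for 5 of 6 (sums 5205 and 506), endothelial markers for 6 of 6 (2180 and 528), mast cell markers for 5 of 5 (2483 and 252), and neutrophil markers for 3 of 4 expressed (1513 and 614). Mast cell genes Cpa3 and Mcpt4 were under the floor in B-Gal positive cells. Keratinocyte markers had low values on both arrays, at most 7.11, with 2 of 5 expressed at least 2-fold lower (sums 501 and 324), and T cell markers had 1 of 4 expressed higher and 1 lower (417 and 324). Sums run over all listed markers with a probe set, also those under the floor or not past 2-fold. That of neutrophils thus includes Csf3r, which read 8.37 and 8.86 and was 1.40-fold higher. The part of these cell types in the differences of the family was not tested. In RNA pooled from many cells, fewer cells of a type and less RNA per cell cannot be told apart.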

How the data were processed

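Affymetrix Mouse Gene ST arrays measured 1 B-Gal negative and 1 B-Gal positive sample. The values the authors deposited, 1 for each probe set on each array, were taken as log2 values because they run from 1.16 to 14.8. The submitters' processing notes name Partek, and summarization, normalization and log base are stated in none of the sources used. Array medians were 6.18 (B-Gal negative) and 6.16 (B-Gal positive), and no scaling was added.

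Of 28853 probe sets, 21789 name 1 gene in the platform annotation. Symbols were checked by gene ID against RefSeq for GRCm38.p6, which matched 21698 of them and was used for names and gene order. Where a gene had several probe sets, the one with the highest mean was used. Every expressed member is named. Folds against a value under the floor use the floor and are given as at least that size. Among the lists of partner genes, all inhibitors and relatives and the 4 members with the largest differences of each other list were named by rule, and marker lists are given by counts and sums. Further genes of any list were chosen after their values were seen, as were the promoter motifs and the 4 printed windows. Members and lists were chosen with earlier results of these data known. With 1 array per group no p-value was computed, and the number of arrays limits the precision. Calls past 2-fold, without the floor, and the median, quantile and loess scalings were tested on simulated data. The receptor and offset scalings were not. Python 3.11.15, pandas 2.3.3 and statsmodels 0.14.6 were used.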

Additional observations from a re-analysis of the deposited data

How the results depend on the processing

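With the receptor genes' median difference subtracted, 2 members were at least 2-fold higher in place of 4, and 16 were lower in place of 15. Of all expressed genes, 6.9% were then higher and 17.3% lower. Adamts19 passed 2-fold on the lower side under that scaling (-1.19) and under loess (-1.05). At a 4-fold threshold 1 member was higher and 9 were lower, beside 3.01% and 5.72% of all expressed genes. With a higher floor (6.27, the receptor genes' 99th percentile), which leaves 27 expressed members, their median difference was -1.16 in place of -0.54, and with no filter, over all 57 members, it was -0.12. With that higher floor the 4 higher and 15 lower members were the same genes, beside 11.8% and 14.7% of all genes expressed by it. Under median centring, quantile normalization, loess (span 0.4), an offset of 32, values raised to the floor, no filter, the mean over probe sets and a 1.5-fold threshold, the counts of higher and lower members stayed within 1.5 times of those reported. Adam15 was not past 2-fold under quantile normalization (0.91), loess (0.96) or the offset (0.97). Adamts7, Adamts9 and Adamts16 were not past it under the offset. Of single members, 1 moved by over 1.5-fold under the scalings and probe set rules tried, Adamts9 by the mean over probe sets (-2.27). No member past 2-fold changed sign under them. No paired analysis was possible because each group has 1 array, and leaving out a replicate was not possible for the same reason. Values at or under the floor have no order, so a difference that reaches it has a lower bound only.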

Other observations

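Adam1a and Adam1b had exactly the same deposited value on both arrays (5.92 for Adam1a and 4.77 for Adam1b), as did 614 of the 28853 probe sets and 82 of the expressed genes. The inhibitor and shed-protein lists hold no such member apart from Cdh1 (6.19 on both arrays), and Thsd4 (5.30) was the other among relatives of the family. Why these values are equal was not tested.

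Of the probe sets that name several genes, 2 include a family member, and both were under the floor on both arrays. The first names 5 genes, among them Adam34, Adam34l, Adam26a and Adam26b, with log2 values of 4.24 in B-Gal negative and 4.78 in B-Gal positive cells. The second names Adam4 and Gm4787, with 5.07 and 5.13.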
